A study of Mus musculus with 20 samples.

Results

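The MHC class II pathway presents peptides from outside the cell to CD4 T cells, and 7 of its genes were followed here across macrophages exposed to airway fluid fractions. The members are a list of named genes of the pathway, each found in the count table, and they are 7 of the 78409 genes counted. The rule names these genes, uses no measured value and does not hold every class II gene. The list was chosen with earlier results of these data known. They are Ciita, the regulator of the pathway, the chain genes H2-Aa, H2-Ab1 and H2-Eb1, the invariant chain gene Cd74, and the peptide-loading genes H2-DMa and H2-DMb1.

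An MHC class II molecule is a pair of an alpha and a beta chain that assembles in the endoplasmic reticulum around the invariant chain, which blocks the peptide groove and directs the complex to endosomes. There, proteases degrade the invariant chain and the H2-DM heterodimer exchanges its last fragment for peptides of ingested proteins. Transcription of these genes depends on CIITA, a coactivator that binds a complex of factors on the X and Y boxes of their promoters, and interferon gamma is the classical inducer of CIITA in macrophages.

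Bone marrow cells of wild-type female C57BL/6J mice were grown into macrophages (BMDMs) in medium conditioned by L929 cells and used on day 7 of culture. The macrophages were given PBS or a fraction of bronchoalveolar lavage fluid from ovalbumin-challenged mice that were either wild type (RNY1+/+) or carried a CRISPR deletion of both alleles of the small RNA gene RNY1 (RNY1-/-). From fluid of each genotype, 1 fraction was enriched for extracellular vesicles (EVFx) and 1 for protein outside the vesicles (ProteinFx, given at 0.75 ug per uL). The EVFx of both genotypes were matched by particle number, at 3.5 in units of 1e7 particles per uL. The doses of EVFx and ProteinFx are therefore in unlike units. The 5 groups, PBS, RNY1+/+ EVFx, RNY1-/- EVFx, RNY1+/+ ProteinFx and RNY1-/- ProteinFx, hold 4 libraries each, sequenced from the 3′ ends of polyadenylated RNA with unique molecular identifiers. All fractions had been stored for 5 days at low temperature. The names of all 20 libraries share a prefix, which the labels do not call a batch.

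The comparisons with PBS ask what each fraction did to the pathway in macrophages, and the comparisons of RNY1-/- with RNY1+/+ ask whether the donor's RNY1 mattered within a fraction. No mouse or culture of origin is given for the 4 libraries within each group, so every p-value here measures the spread between these libraries, which may be technical. In bulk RNA, fewer cells of a type and less RNA per cell cannot be told apart. The knockout is in the donors of the fluid while the macrophages are wild type, and both Rny1 entries (ENSMUSG00000065701 and ENSMUSG00000138036) held 0 to 1.5 counts in every library, so Rny1 counts check no label.

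Depth limits the weakest member, Ciita, which rests on a few molecules in most libraries, and H2-DMa, which had 1 to 61 counts. Total counts were 4879706, 6473209, 4372150 and 5619679 in the PBS libraries (replicates 1 to 4, the order used throughout), 7736220, 7992435, 4994483 and 8277366 with RNY1+/+ EVFx, and 7613972, 6714480, 4059987 and 5943726 with RNY1-/- EVFx. They were 5224392, 3945372, 3979032 and 5763532 with RNY1+/+ ProteinFx and 5293171, 7149366, 2510005 and 3855450 with RNY1-/- ProteinFx. Levels are given as CPM, a gene's count divided by the total of its library and scaled to a common total. A count of 0 allows up to 3 counts, which is 0.362 CPM in the deepest library and 1.2 CPM in the shallowest, and this floor covers counting error only.

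Some libraries stood apart within their group. All 7 members were higher in RNY1-/- ProteinFx replicates 1 and 2 than in replicates 3 and 4, and PBS replicate 3 was the lowest PBS library for H2-Aa, H2-Ab1, H2-Eb1, H2-DMa, H2-DMb1 and Cd74. These pairs of RNY1-/- ProteinFx libraries also differed over all genes. Chi-square per degree of freedom was 14.4 to 17.4 between the pairs, and 3.91 and 2.55 within them. The share of all genes split in this way is not given here. The libraries also differed in how their counts moved with the GC content of transcripts. This was measured as the median log2 level of genes in the top quartile of GC content minus that of genes in the bottom quartile, each gene centred on its mean over the 20 libraries. The GC measure was 0.94, 0.98, -0.21 and 0.48 in PBS, 0.41, 0.34, 0.25 and 0.75 with RNY1+/+ EVFx, and -0.29, -0.16, -0.38 and -0.46 with RNY1-/- EVFx. It was -0.34, -0.45, -0.18 and -0.44 with RNY1+/+ ProteinFx and 0.04, 0.07, -0.71 and -0.59 with RNY1-/- ProteinFx. The libraries of both EVFx groups did not overlap in this measure, and the libraries that stood apart in MHC class II levels, PBS replicate 3 and RNY1-/- ProteinFx replicates 3 and 4, were the lowest of their groups in it. Among 10303 genes the members' transcripts lay at percentile 38.4 of GC content for H2-Aa (46.5% GC), 67.2 for H2-Eb1 (51.8%), 77.3 for H2-DMb1 (53.8%), 83 for H2-DMa (55.1%), 83.1 for Ciita (55.2%), 89 for Cd74 (56.6%) and 91.8 for H2-Ab1 (57.3%). The members' counts below were therefore also taken with the GC and length trends of each library removed. Where a comparison holds RNY1-/- ProteinFx, they were also taken without either pair of its libraries. The part of the GC measure in the members' differences was not tested beyond that.

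**Figure D1:**
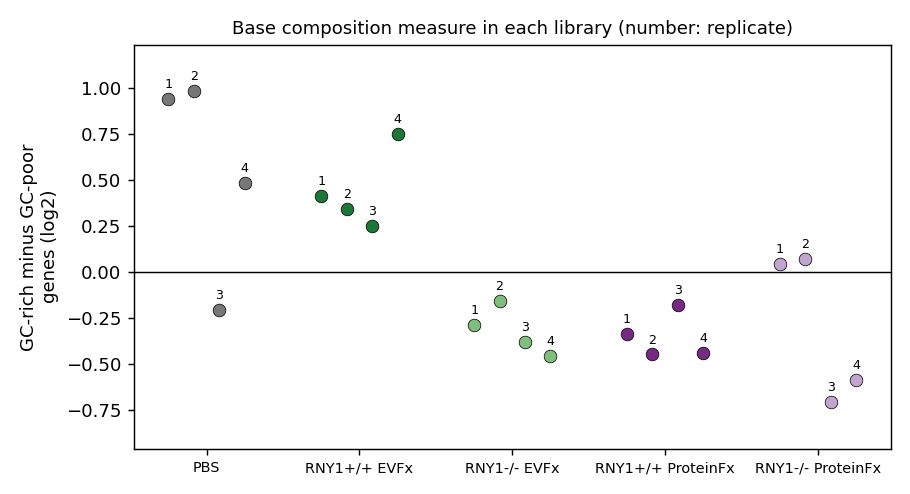
The GC measure of each library (log2, vertical axis) by treatment group; each point is 1 library, numbered by replicate. The RNY1+/+ EVFx libraries lie at 0.25 to 0.75 and the RNY1-/- EVFx libraries at -0.46 to -0.16.

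Ciita (ENSMUSG00000022504) encodes the coactivator that the other members need for transcription. It was counted 0, 5, 0 and 2 times in the PBS libraries, 4, 11, 7 and 14 times with RNY1+/+ EVFx, 2, 6, 2 and 7 times with RNY1-/- EVFx, 8, 3, 4 and 5 times with RNY1+/+ ProteinFx, and 36, 23, 4 and 3 times with RNY1-/- ProteinFx. In CPM these are 0, 0.772, 0 and 0.356, then 0.517, 1.38, 1.4 and 1.69, then 0.263, 0.894, 0.493 and 1.18, then 1.53, 0.76, 1.01 and 0.868, and 6.8, 3.22, 1.59 and 0.778 in the same order of groups. The regulator was near the floor nearly everywhere, had 0 counts in a pair of PBS libraries, and stood clearly higher in RNY1-/- ProteinFx replicates 1 and 2. More than 3 counts were found in 13 of the 20 libraries. The group means were 0.282 CPM ± 0.367 (SD, n = 4) for PBS, 0.707 ± 0.408 for RNY1-/- EVFx, 1.04 ± 0.342 for RNY1+/+ ProteinFx, 1.25 ± 0.507 for RNY1+/+ EVFx and 3.10 ± 2.67 for RNY1-/- ProteinFx. All neighbours in this order overlapped, whereas every RNY1-/- ProteinFx library lay above every PBS library. Replicate 4 (0.778 CPM from 3 counts, the floor of that library) was only just above PBS replicate 2 (0.772 CPM from 5 counts).

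H2-Aa (ENSMUSG00000036594) encodes the alpha chain of I-A, the class II molecule that C57BL/6 mice display. Its level was 16, 13.9, 11.2 and 16.9 CPM in PBS, 19.1, 23.3, 26.6 and 27.1 with RNY1+/+ EVFx, 13.3, 16.2, 14.3 and 15.5 with RNY1-/- EVFx, 17.2, 15.7, 35.4 and 21.3 with RNY1+/+ ProteinFx, and 45.3, 37.6, 29.5 and 30.1 with RNY1-/- ProteinFx. Every library given RNY1+/+ EVFx or RNY1-/- ProteinFx was above every PBS library, those given RNY1-/- EVFx overlapped PBS, and RNY1+/+ ProteinFx replicate 3 stood far above the rest of its group. From the lowest, the group means were 14.5 ± 2.53 CPM for PBS, 14.8 ± 1.31 for RNY1-/- EVFx, 22.4 ± 8.99 for RNY1+/+ ProteinFx, 24.0 ± 3.68 for RNY1+/+ EVFx and 35.6 ± 7.46 for RNY1-/- ProteinFx (SD, n = 4). Neighbouring groups overlapped except at the top, where the highest RNY1+/+ EVFx library (27.1 CPM) was below the lowest RNY1-/- ProteinFx library (29.5 CPM).

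H2-Ab1 (ENSMUSG00000073421) encodes the I-A beta chain, the partner of the H2-Aa product. It was found at 7.58, 10, 7.32 and 8.72 CPM in PBS, 17.8, 22, 19.6 and 24.6 with RNY1+/+ EVFx, 12.9, 11.9, 13.5 and 14.6 with RNY1-/- EVFx, 15.1, 14.4, 24.1 and 20 with RNY1+/+ ProteinFx, and 30, 28.1, 27.1 and 19.7 with RNY1-/- ProteinFx. The PBS libraries were the lowest of all 20, with no overlap with any treated group, and both EVFx groups were apart from each other. The order of group means was PBS (8.42 ± 1.24 CPM), RNY1-/- EVFx (13.2 ± 1.15), RNY1+/+ ProteinFx (18.4 ± 4.53), RNY1+/+ EVFx (21.0 ± 2.96) and RNY1-/- ProteinFx (26.2 ± 4.52; SD, n = 4). Apart from PBS and RNY1-/- EVFx, each pair of neighbours overlapped.

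H2-Eb1 (ENSMUSG00000060586) encodes the beta chain of I-E, whose alpha chain gene H2-Ea (ENSMUSG00000036322) is defective in C57BL/6 mice and held 0 counts in every library. Expression of H2-Eb1 was 10.9, 9.11, 5.49 and 10.1 CPM in PBS, 9.18, 11.8, 11.2 and 17.2 with RNY1+/+ EVFx, 6.04, 6.4, 6.16 and 6.73 with RNY1-/- EVFx, 9.28, 6.59, 9.05 and 8.85 with RNY1+/+ ProteinFx, and 21.9, 17.8, 11.6 and 12.7 with RNY1-/- ProteinFx. All RNY1-/- ProteinFx libraries were above all PBS, RNY1-/- EVFx and RNY1+/+ ProteinFx libraries, and the RNY1-/- EVFx libraries were close together at a low level that PBS replicate 3 also had. The order of group means was RNY1-/- EVFx (6.33 ± 0.305 CPM), RNY1+/+ ProteinFx (8.44 ± 1.25), PBS (8.90 ± 2.39), RNY1+/+ EVFx (12.3 ± 3.41) and RNY1-/- ProteinFx (16 ± 4.79; SD, n = 4), and every pair of neighbours overlapped.

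Cd74 (ENSMUSG00000024610) encodes the invariant chain, the chaperone of newly made class II molecules. Cd74 stood at 36.9, 32.4, 12.6 and 24.4 CPM in PBS, 30.8, 36.1, 46.3 and 58.7 with RNY1+/+ EVFx, 17.3, 24, 23.6 and 15.6 with RNY1-/- EVFx, 29.5, 29.9, 46.5 and 36.3 with RNY1+/+ ProteinFx, and 75, 72.1, 44.6 and 44.9 with RNY1-/- ProteinFx. Both EVFx groups were apart, with every RNY1-/- library lower, and RNY1-/- ProteinFx replicates 1 and 2 were the highest libraries of all. Means ran from RNY1-/- EVFx (20.2 ± 4.28 CPM) through PBS (26.6 ± 10.7), RNY1+/+ ProteinFx (35.5 ± 7.94) and RNY1+/+ EVFx (43.0 ± 12.3) to RNY1-/- ProteinFx (59.1 ± 16.7; SD, n = 4), with overlap between each pair of neighbours.

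H2-DMa (ENSMUSG00000037649) and H2-DMb1 (ENSMUSG00000079547) encode the chains of the H2-DM heterodimer, which edits the peptide in the groove. H2-DMa was at 4.71, 3.17, 1.14 and 2.14 CPM in PBS, 4.27, 4.25, 3.2 and 3.87 with RNY1+/+ EVFx, 1.97, 2.38, 0.246 and 1.35 with RNY1-/- EVFx, 3.45, 3.55, 4.27 and 2.6 with RNY1+/+ ProteinFx, and 7.08, 8.53, 2.79 and 3.63 with RNY1-/- ProteinFx. H2-DMb1 was at 16.6, 14.1, 6.4 and 11.5 CPM in PBS, 8.34, 10.3, 7.71 and 11.5 with RNY1+/+ EVFx, 6.11, 5.51, 4.68 and 5.05 with RNY1-/- EVFx, 7.56, 5.83, 7.54 and 6.16 with RNY1+/+ ProteinFx, and 16.1, 15.9, 5.98 and 7.26 with RNY1-/- ProteinFx. In RNY1-/- EVFx both genes were lower in every library than in any RNY1+/+ EVFx library, and both were split widely between the high and low pairs of RNY1-/- ProteinFx libraries. Unlike the other members, H2-DMb1 had its highest group mean in CPM in PBS, where it spread from 6.4 to 16.6 CPM.

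The mean of H2-DMa was 1.49 ± 0.93 CPM with RNY1-/- EVFx, 2.79 ± 1.53 in PBS, 3.47 ± 0.684 with RNY1+/+ ProteinFx, 3.90 ± 0.498 with RNY1+/+ EVFx and 5.51 ± 2.74 with RNY1-/- ProteinFx (SD, n = 4), and all neighbours in this order overlapped. The mean of H2-DMb1 was 5.34 ± 0.616 CPM with RNY1-/- EVFx, 6.77 ± 0.908 with RNY1+/+ ProteinFx, 9.48 ± 1.77 with RNY1+/+ EVFx, 11.3 ± 5.44 with RNY1-/- ProteinFx and 12.1 ± 4.36 in PBS. Of its neighbours, RNY1+/+ ProteinFx (7.56 CPM at most) and RNY1+/+ EVFx (7.71 CPM at least) did not overlap. H2-DMb1 has a near-identical neighbour, H2-DMb2 (ENSMUSG00000037548), and reads that match several genes were counted as fractions. H2-DMb1 held such fractions in 8 libraries and H2-DMb2 in 6, so the division of reads between them is uncertain, whereas H2-Aa, H2-Ab1 and Ciita held none.

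**Figure D2:**
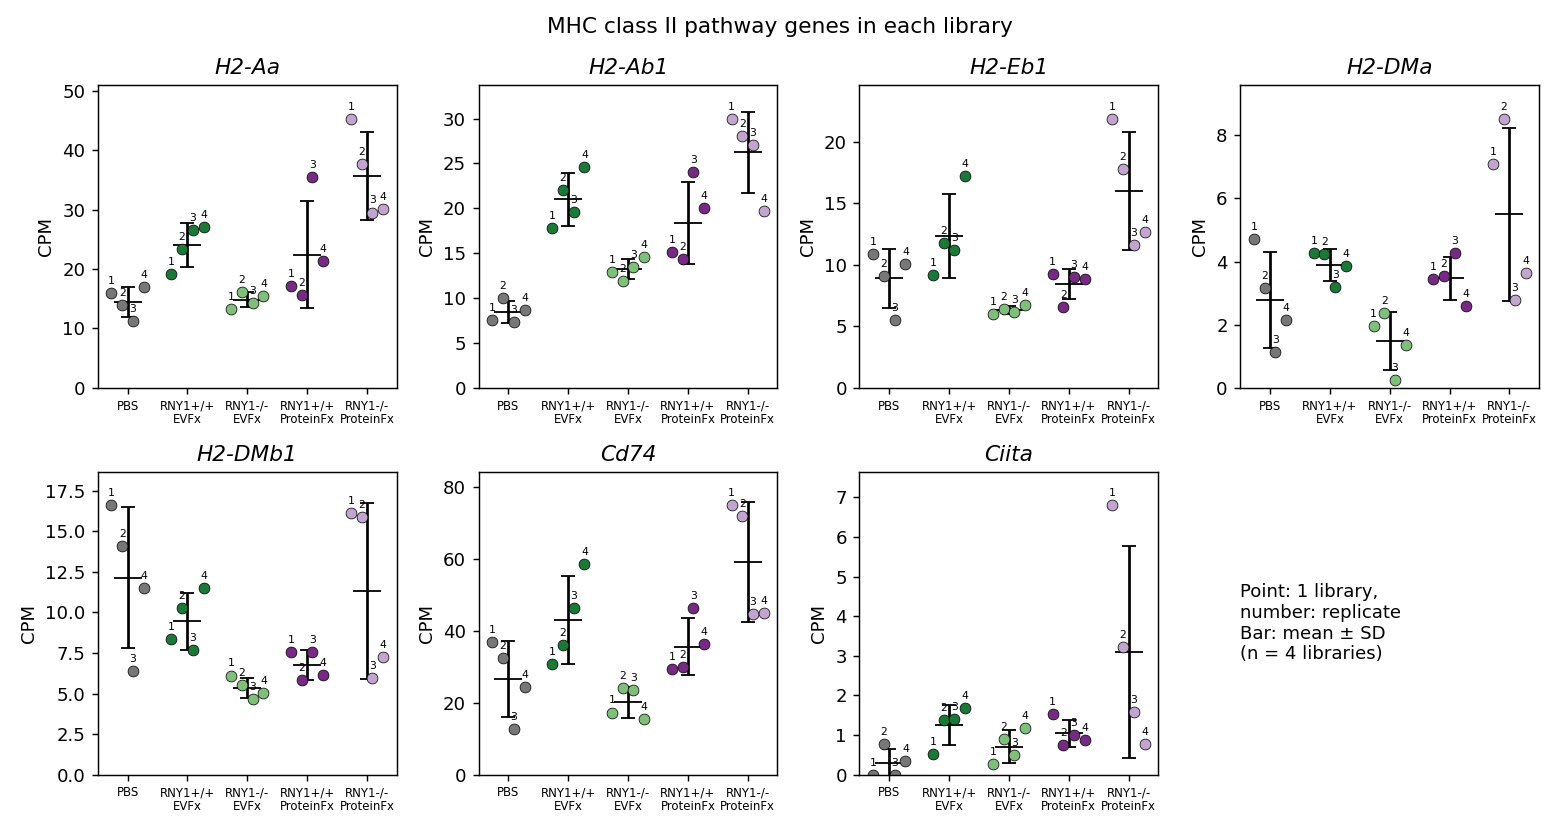
Level of each MHC class II pathway gene in every library (CPM, vertical axis) by treatment group. Points are libraries numbered by replicate, and bars are the mean ± SD of 4 libraries; RNY1-/- ProteinFx replicates 1 and 2 lie above replicates 3 and 4 in all 7 panels.

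Summed over the 7 members, the libraries held 92.6, 83.5, 44.1 and 74.1 CPM in PBS, 90, 109, 116 and 145 with RNY1+/+ EVFx, 57.9, 67.3, 63.1 and 60.1 with RNY1-/- EVFx, 83.6, 76.8, 128 and 96 with RNY1+/+ ProteinFx, and 202, 183, 123 and 119 with RNY1-/- ProteinFx. The RNY1-/- EVFx libraries all lay inside the range of PBS, and below every RNY1+/+ EVFx library. The 7 members did not move as a block. Likeness between a pair of genes was measured as the root mean square (RMS) difference of their log2 CPM, each centred on its own mean, over the 20 libraries, where 0 means the same pattern. Among the chains and the invariant chain, the RMS difference was 0.29 for H2-Aa and H2-Ab1, 0.30 for H2-Aa and H2-Eb1, H2-Aa and Cd74, and H2-Eb1 and Cd74, 0.45 for H2-Ab1 and Cd74 and 0.47 for H2-Ab1 and H2-Eb1. H2-DMb1 was nearest to H2-Eb1 at 0.38 and differed from H2-Ab1 by 0.77, and the most unlike pair was H2-DMb1 and Ciita at 0.96.

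Differences were tested with edgeR's quasi-likelihood test on the 8 libraries of each comparison, scaled by the trimmed mean of M-values (TMM), and p-values were adjusted over all tested genes by the Benjamini-Hochberg method. Group means and overlap between libraries were read from CPM, without TMM scaling, so their order can differ from the fitted fold changes. TMM factors over the 20 libraries were 1.08 to 1.11 in PBS and 0.967 to 0.982 with RNY1+/+ EVFx. They were 0.884 to 0.956 with RNY1-/- EVFx, 0.953 to 0.985 with RNY1+/+ ProteinFx and 1.00 to 1.08 with RNY1-/- ProteinFx. For no comparison is the share of all genes without overlap given here. Genes had to pass edgeR's filterByExpr and reach a mean of 3 CPM to be tested. Ciita failed this limit in all 8 comparisons and H2-DMa in both comparisons of RNY1-/- EVFx with PBS and with RNY1+/+ EVFx. In PBS the mean of H2-DMa was 2.79 CPM, so against PBS it reached the limit only through the treated group. Those means were 3.90 CPM with RNY1+/+ EVFx, 3.47 with RNY1+/+ ProteinFx and 5.51 with RNY1-/- ProteinFx. The place of H2-DMa in the counts and medians of these comparisons with PBS therefore depends on the difference tested. A gene passed the test with an adjusted p under 0.05 and was called a differentially expressed gene (DEG) when its log2 fold change was also above 1 or below -1. With library totals in place of TMM, the median log2 fold change over all tested genes moved from -0.03 to -0.21 for RNY1+/+ EVFx, to -0.27 for RNY1-/- EVFx and to -0.20 for RNY1+/+ ProteinFx against PBS. It moved from 0.02 to 0.19 for RNY1-/- ProteinFx against RNY1-/- EVFx and from 0.00 to 0.16 for the interaction described further on. The share of all DEGs that were higher moved from 50.1% to 37.6% for RNY1+/+ EVFx, from 40% to 24.6% for RNY1-/- EVFx and from 42% to 29.5% for RNY1+/+ ProteinFx against PBS, and for RNY1-/- against RNY1+/+ EVFx it moved from 16% to 6.88%. For RNY1-/- against RNY1+/+ ProteinFx it moved from 36.1% to 50.5%, for RNY1-/- ProteinFx against RNY1-/- EVFx from 55.1% to 68.8%, and for the interaction from 68.4% to 87.9%. Removing the GC and length trends moved it from 16% to 50% for RNY1-/- against RNY1+/+ EVFx, from 44.1% to 54.5% for RNY1-/- ProteinFx against PBS and from 68.4% to 52.8% for the interaction. The 4 comparisons with PBS share the PBS libraries, and every comparison shares libraries with others, so their values stand side by side and are not independent.

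With RNY1+/+ EVFx, the I-A chains, the I-E beta chain and the invariant chain rose against PBS while the H2-DM chains did not pass the test. H2-Ab1 rose most, by 2.8-fold, and H2-Aa by 1.86-fold, and for both genes all 4 treated libraries were above all PBS libraries. How many of all genes were apart in this way is not given here. H2-Eb1 rose by 1.56-fold and Cd74 by 1.81-fold with overlapping libraries. By edgeR with Benjamini-Hochberg adjustment, the log2 fold changes were 0.90 for H2-Aa (standard error 0.17, adjusted p 0.00115), 1.49 for H2-Ab1 (0.16, 1.78e-05), 0.64 for H2-Eb1 (0.24, 0.0498) and 0.86 for Cd74 (0.29, 0.0325). H2-DMa had 0.66 (0.32, 0.118) and H2-DMb1 -0.18 (0.25, 0.595) in the same edgeR fit with Benjamini-Hochberg adjustment. Of the 6 members tested, 1 was a DEG, and it was higher, against 8.24% of all 10797 tested genes as DEGs higher and 8.20% lower. By adjusted p alone 4 of 6 members passed as higher and 0 as lower, against 21.7% and 22.8% of all genes, and the median log2 fold change was 0.76 for the members and -0.03 for all genes. The calls for H2-Eb1 and Cd74 in that comparison lay near the threshold and were lost without single libraries, although most log2 fold changes stayed about as large. The edgeR adjusted p (Benjamini-Hochberg) of H2-Eb1 was 0.0922, 0.0584 and 0.0644 without PBS replicate 2, 3 or 4, 0.0825, 0.0723 and 0.157 without RNY1+/+ EVFx replicate 2, 3 or 4, and 0.137 with library totals, and it ran from 0.00689 to 0.157 over 16 alternatives. The log2 fold changes in these fits were 0.64, 0.48 and 0.72, then 0.67, 0.68 and 0.44, and 0.46 with library totals. That of Cd74 was 0.0781 without PBS replicate 4, 0.0743 and 0.0985 without RNY1+/+ EVFx replicate 3 or 4, and 0.0764 with library totals, over a range of 1.11e-05 to 0.0985 (edgeR, Benjamini-Hochberg), at log2 fold changes of 0.83, 0.82, 0.67 and 0.68. Without PBS replicate 1, H2-DMa passed at a log2 fold change of 1.00 and 3 members were DEGs. With the GC and length trends removed H2-DMa passed at 0.68, so that 5 of 6 members were higher, while over all genes 5433 of 10472 passed in either direction in place of 4809 of 10797.

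With RNY1-/- EVFx, 1 chain gene rose against PBS and 1 peptide-loading gene fell. H2-Ab1 was 1.84-fold higher than in PBS, with all 4 libraries above. H2-DMb1 fell to 0.521 of its PBS level in the TMM-scaled fit. In CPM its libraries did not overlap, with 6.11 in RNY1-/- EVFx replicate 1 and 6.4 in PBS replicate 3. The TMM factors of these libraries were 0.933 and 1.11, and scaling by them reverses their order. H2-Aa, H2-Eb1 and Cd74 did not pass the test. With edgeR and Benjamini-Hochberg adjustment, the log2 fold change was 0.88 for H2-Ab1 (standard error 0.16, adjusted p 0.000841) and -0.94 for H2-DMb1 (0.26, 0.00968). It was 0.27 for H2-Aa (0.16, 0.172), -0.26 for H2-Eb1 (0.22, 0.321) and -0.18 for Cd74 (0.27, 0.59) by the same edgeR test and Benjamini-Hochberg adjustment. None of the 5 members tested was a DEG by edgeR, and DESeq2 called 0 DEGs, whereas 9.01% of 10730 genes were DEGs higher and 13.5% lower. By unadjusted edgeR p under 0.05, 2 of 5 passed, but the share of all genes at that limit is not given here. By adjusted p, 1 member passed as higher and 1 as lower, against 27.7% and 30.7% of all genes, and the medians were -0.18 and -0.03. Leaving out single libraries and removing the GC and length trends moved these values. Without PBS replicate 3 or RNY1-/- EVFx replicate 1, 1 member was a DEG, and without PBS replicate 3 H2-Eb1 was lower at a log2 fold change of -0.40 (edgeR, Benjamini-Hochberg adjusted p 0.0399, range over 16 alternatives 0.0399 to 0.865). Removing the GC and length trends took H2-Ab1 from 0.88 to 1.44, where it became a DEG, and H2-DMb1 from -0.94 to -0.57, and turned Cd74 from -0.18 to 0.35 without a call.

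With RNY1+/+ ProteinFx, the I-A chains rose against PBS and H2-DMb1 fell. The rise was 2.44-fold for H2-Ab1, whose 4 libraries all exceeded PBS, and 1.72-fold for H2-Aa, which owed much to replicate 3 at 35.4 CPM. The share of all genes with such a separation is not given here. H2-DMb1 fell to 0.63 of PBS with overlap, and H2-Eb1, H2-DMa and Cd74 did not pass. The edgeR log2 fold changes with Benjamini-Hochberg adjustment were 0.78 for H2-Aa (standard error 0.25, adjusted p 0.0192), 1.29 for H2-Ab1 (0.20, 0.000279) and -0.67 for H2-DMb1 (0.26, 0.0497). They were 0.09 for H2-Eb1 (0.23, 0.761), 0.46 for H2-DMa (0.36, 0.296) and 0.58 for Cd74 (0.27, 0.0917) with edgeR and Benjamini-Hochberg adjustment. Of 6 members, 1 was a DEG and it was higher, against 8.96% of 10834 genes as DEGs higher and 12.4% lower. By adjusted p, 2 passed as higher and 1 as lower, against 25.9% and 29.3%, with medians of 0.52 for the members and -0.03 for all genes. Apart from that of H2-Ab1, these calls depended on single libraries and settings. Without RNY1+/+ ProteinFx replicate 3 the log2 fold change of H2-Aa was 0.50 (edgeR, Benjamini-Hochberg adjusted p 0.0527), with the GC and length trends removed it was 0.54 (0.077), and with library totals 0.62 (0.051), over a range of 0.000365 to 0.146. H2-DMb1 lost its call in 12 of 16 alternatives, where the edgeR adjusted p (Benjamini-Hochberg) ran from 0.000692 to 0.323. It missed the threshold without PBS replicate 1, 2 or 4 (-0.49, -0.60 and -0.70 on the log2 scale), without any one RNY1+/+ ProteinFx library (-0.72, -0.59, -0.70 and -0.64), by DESeq2 (-0.65) and with the GC and length trends removed (-0.26). Cd74 passed at 0.76 without PBS replicate 1 and at 1.15 with the GC and length trends removed, and H2-DMa passed at 0.87 with those trends removed.

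In CPM, RNY1-/- ProteinFx had the highest group mean of each member except H2-DMb1. Apart from H2-Aa, its libraries overlapped those of RNY1+/+ EVFx, and the difference between those groups was not tested. Against PBS, H2-Ab1 rose 3.23-fold, H2-Aa 2.57-fold, Cd74 2.32-fold and H2-Eb1 1.89-fold, and for each of these the 4 treated libraries were above all PBS libraries. How many of all genes were apart in this way is not given here. H2-DMa was 2.18-fold higher without passing the test, and H2-DMb1 had the same fitted mean in both groups. By edgeR with Benjamini-Hochberg adjustment the log2 fold changes were 1.36 for H2-Aa (standard error 0.18, adjusted p 0.00031), 1.69 for H2-Ab1 (0.17, 4.61e-05), 0.92 for H2-Eb1 (0.25, 0.0177) and 1.21 for Cd74 (0.29, 0.0107). H2-DMa had 1.12 (0.42, 0.0572) and H2-DMb1 0 (0.34, 0.995) with edgeR and Benjamini-Hochberg adjustment. Of 6 members, 3 were DEGs higher and 0 lower, against 6.31% and 7.99% of 10856 genes. By adjusted p alone 4 were higher and 0 lower, against 16.7% and 19%, and the medians were 1.17 and -0.03. The pairs of RNY1-/- ProteinFx libraries were taken in turn. Without replicates 1 and 2, H2-Aa (1.16) and H2-Ab1 (1.58) still passed, while H2-Eb1 (0.57) and Cd74 (0.87) did not (edgeR, Benjamini-Hochberg adjusted p 0.15 and 0.0736, each the highest over 20 alternatives, whose lowest were 6.81e-06 and 2.31e-10). H2-DMb1 was at -0.73 without replicates 1 and 2 and at 0.42 without replicates 3 and 4, and passed in neither. Without replicates 3 and 4, 5 of 6 members were DEGs, with H2-DMa at 1.51 and Cd74 at 1.49. Over all genes the DEGs went from 1552 of 10856 to 920 of 10932 in that fit, and to 2320 of 10938 without replicates 1 and 2. The count of DEGs was also 5 without PBS replicate 1 or RNY1-/- ProteinFx replicate 3, and 2 without PBS replicate 3. H2-DMa passed in 10 of 18 alternatives, among them DESeq2 and removal of the GC and length trends (1.46), and without PBS replicate 1 (1.46) or RNY1-/- ProteinFx replicate 3 (1.29). Its place in these counts rests on its level with RNY1-/- ProteinFx, as its PBS mean of 2.79 CPM was under the test's limit.

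Between the EVFx of both genotypes, every member tested was lower with RNY1-/- EVFx than with RNY1+/+ EVFx, and their libraries did not overlap. The share of all genes without overlap between these groups is not given here. The level with RNY1-/- EVFx was 0.488 of that with RNY1+/+ EVFx for Cd74, 0.536 for H2-Eb1, 0.593 for H2-DMb1, 0.65 for H2-Aa and 0.656 for H2-Ab1. H2-DMa, below the test's limit, was also lower in all 4 libraries, and Ciita overlapped. By edgeR with Benjamini-Hochberg adjustment, the log2 fold changes were -0.62 for H2-Aa (standard error 0.13, adjusted p 0.00182), -0.61 for H2-Ab1 (0.13, 0.00203), -0.90 for H2-Eb1 (0.19, 0.00222), -0.75 for H2-DMb1 (0.17, 0.0029) and -1.04 for Cd74 (0.19, 0.00102). Thus 1 of 5 members was a DEG lower and 0 were DEGs higher, against 1.98% and 0.378% of 10322 genes. All 5 passed as lower by adjusted p, against 26.6% of genes lower and 25.5% higher, and the median was -0.75 for the members and 0.00 for all genes. The GC measure split both EVFx groups in the same way, and its part in the difference was not tested beyond the fit with the trends removed. In that fit H2-Ab1 lost its call at -0.16 (edgeR, Benjamini-Hochberg adjusted p 0.328, range over 16 alternatives 1.85e-05 to 0.328). H2-Aa (-0.72), H2-Eb1 (-0.70), H2-DMb1 (-0.45) and Cd74 (-0.61) still passed, but Cd74 was no longer past the fold limit, so 0 of 5 members were DEGs by edgeR, while over all genes the DEGs went from 243 of 10322 to 92 of 10020 and the genes passing by adjusted p from 5379 to 3370. The count of DEGs among the members was 2 without RNY1+/+ EVFx replicate 1 and 0 without RNY1+/+ EVFx replicate 4, RNY1-/- EVFx replicate 1 or RNY1-/- EVFx replicate 4.

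Between the ProteinFx of both genotypes the direction was the opposite, and only H2-Eb1 passed. H2-Eb1 was 1.81-fold higher with RNY1-/- ProteinFx than with RNY1+/+ ProteinFx, with all 4 libraries above. The other 5 tested members lay between 1.34-fold for H2-Ab1 and 1.64-fold for H2-DMb1 with overlapping libraries. By edgeR with Benjamini-Hochberg adjustment the log2 fold change of H2-Eb1 was 0.86 (standard error 0.20, adjusted p 0.0245). The others were 0.60 for H2-Aa (0.22, 0.156), 0.43 for H2-Ab1 (0.18, 0.212), 0.71 for H2-DMa (0.31, 0.233), 0.71 for H2-DMb1 (0.27, 0.175) and 0.66 for Cd74 (0.19, 0.0589) with edgeR and Benjamini-Hochberg adjustment. None of the 6 was a DEG by edgeR or by DESeq2, while 0.659% of 10472 genes were DEGs higher and 1.17% lower. By unadjusted edgeR p under 0.05, 6 of 6 passed, but the share of all genes at that limit is not given here. By adjusted p, 1 member was higher and 0 were lower, against 2.20% and 3.37%, with medians of 0.68 and 0.02. The members' values in this comparison depended on RNY1-/- ProteinFx replicates 1 and 2. Without them the log2 fold changes were 0.39 for H2-Aa, 0.28 for H2-Ab1, 0.49 for H2-Eb1, -0.09 for H2-DMa, -0.06 for H2-DMb1 and 0.30 for Cd74, and no member passed (the lowest edgeR adjusted p, Benjamini-Hochberg, was 0.177, for H2-Eb1, whose range over 20 alternatives was 0.000664 to 0.177), while over all genes 868 of 10394 passed in place of 583 of 10472. Without replicates 3 and 4 all 6 passed, at 0.76, 0.52, 1.08, 1.07, 1.09 and 0.92, and 3 were DEGs, while over all genes 2905 of 10483 passed and the DEGs went from 191 to 406. H2-Eb1 also missed the threshold without RNY1+/+ ProteinFx replicate 1, 2, 3 or 4 (0.90, 0.76, 0.88 and 0.89) and without RNY1-/- ProteinFx replicate 1 or 2 (0.69 and 0.82). H2-Aa passed without RNY1+/+ ProteinFx replicate 3 (0.88), H2-DMb1 without RNY1-/- ProteinFx replicate 3 (0.87), and Cd74 without RNY1+/+ ProteinFx replicate 3 (0.80), RNY1-/- ProteinFx replicate 3 (0.75) or replicate 4 (0.76), by DESeq2 (0.65), with library totals (0.76) and with the GC and length trends removed (0.60).

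Among fractions of RNY1+/+ fluid, few members passed the test. H2-Eb1 and H2-DMb1 were lower with ProteinFx than with EVFx, at 0.685 and 0.716 of the EVFx level, and only for H2-DMb1 did the libraries not overlap. The log2 fold changes by edgeR with Benjamini-Hochberg adjustment were -0.55 for H2-Eb1 (standard error 0.20, adjusted p 0.0241) and -0.48 for H2-DMb1 (0.17, 0.0255). H2-Aa (-0.11), H2-Ab1 (-0.20), H2-DMa (-0.21) and Cd74 (-0.28) did not pass. None of the 6 was a DEG by edgeR or DESeq2, and 6.71% of 10443 genes were DEGs higher and 6.82% lower. By unadjusted edgeR p under 0.05, 2 of 6 passed, but the share of all genes at that limit is not given here. By adjusted p, 0 members were higher and 2 lower, against 31.1% and 32.2%, with medians of -0.24 and -0.02. Both calls ended with the GC and length trends removed, at -0.33 for H2-Eb1 and -0.14 for H2-DMb1, while over all genes 5578 of 10120 passed in place of 6608 of 10443. H2-Eb1 also missed the threshold without RNY1+/+ EVFx replicate 4 (-0.34) or RNY1+/+ ProteinFx replicate 2 (-0.45). H2-DMb1 missed it without RNY1+/+ EVFx replicate 2 or 4 (-0.45 and -0.37), without RNY1+/+ ProteinFx replicate 2 or 4 (-0.41 and -0.44), by DESeq2 (-0.46) and with all 20 libraries in the fit (-0.48). Without RNY1+/+ ProteinFx replicate 3, H2-Aa was lower at -0.38 and passed, and without the low-count filter Cd74 was lower at -0.31 and passed (edgeR, Benjamini-Hochberg adjusted p 0.0227).

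Among fractions of RNY1-/- fluid, by contrast, all 6 members tested rose with ProteinFx over EVFx. H2-DMa reached the limit of 3 CPM only through RNY1-/- ProteinFx (5.51 CPM, against 1.49 with RNY1-/- EVFx). Its place in these counts therefore depends on the difference tested. H2-DMa rose 3.27-fold, Cd74 2.67-fold, H2-Eb1 2.3-fold, H2-Aa 2.16-fold, H2-DMb1 1.97-fold and H2-Ab1 1.77-fold. The libraries did not overlap for any of them except H2-DMb1, whose RNY1-/- ProteinFx replicate 3 (5.98 CPM) lay below RNY1-/- EVFx replicate 1 (6.11 CPM). For all genes, the share without overlap between these groups is not given here. By edgeR with Benjamini-Hochberg adjustment the log2 fold changes were 1.11 for H2-Aa (standard error 0.14, adjusted p 8.92e-05), 0.83 for H2-Ab1 (0.15, 0.000921), 1.20 for H2-Eb1 (0.19, 0.000431), 1.71 for H2-DMa (0.42, 0.00793), 0.98 for H2-DMb1 (0.27, 0.0167) and 1.41 for Cd74 (0.19, 9.78e-05). Thus 4 of 6 members were DEGs higher and 0 lower, against 4.98% and 4.06% of 10421 genes. All 6 were higher by adjusted p and 0 lower, against 15.2% and 14.1%, and the medians were 1.16 and 0.02. Without RNY1-/- ProteinFx replicates 1 and 2, H2-Aa (0.90), H2-Ab1 (0.69), H2-Eb1 (0.84) and Cd74 (1.06) still passed, H2-DMb1 did not (0.21), H2-DMa was below the test's limit, and 1 member was a DEG, while 968 of 10292 genes were DEGs in place of 942 of 10421. Without replicates 3 and 4 the values were 1.27 for H2-Aa, 0.93 for H2-Ab1, 1.43 for H2-Eb1, 2.06 for H2-DMa, 1.36 for H2-DMb1 and 1.68 for Cd74. H2-DMb1 missed the threshold without RNY1-/- ProteinFx replicate 1 (0.81) or 2 (0.79), and without replicate 1 only 2 of 5 tested members were DEGs. All 6 calls were kept with the GC and length trends removed, while over all genes 3568 of 10088 passed in place of 3048 of 10421.

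Whether genotype mattered differently in the fractions was tested as an interaction over the 16 libraries given a fraction: the difference of RNY1-/- from RNY1+/+ with ProteinFx minus that with EVFx. The fitted differences of RNY1-/- from RNY1+/+ were negative with EVFx, where 5 of 5 tested members passed, and positive with ProteinFx, where only H2-Eb1 passed. By edgeR with Benjamini-Hochberg adjustment, the interaction was 1.23 for H2-Aa (standard error 0.28, adjusted p 0.00573), 1.03 for H2-Ab1 (0.23, 0.0052), 1.76 for H2-Eb1 (0.29, 0.00163), 1.92 for H2-DMa (0.47, 0.00795), 1.47 for H2-DMb1 (0.34, 0.00596) and 1.70 for Cd74 (0.29, 0.00191). All 6 passed as positive, while 33% of 10443 genes passed in either direction, 16.8% as positive and 16.2% as negative. The median was 1.59 for the members and 0.00 for all genes. Without RNY1-/- ProteinFx replicates 1 and 2, 2 of 5 members passed, H2-Eb1 (1.40) and Cd74 (1.35), while H2-Aa (1.02), H2-Ab1 (0.90) and H2-DMb1 (0.71) did not, and over all genes 350 of 10405 passed in place of 3450 of 10443. Without replicates 3 and 4, where 5665 of 10429 genes passed, the interaction was 1.39 for H2-Aa, 1.14 for H2-Ab1, 1.99 for H2-Eb1, 2.29 for H2-DMa, 1.85 for H2-DMb1 and 1.96 for Cd74. With the GC and length trends removed H2-Ab1 lost its call at 0.53 (edgeR, Benjamini-Hochberg adjusted p 0.079, range over 28 alternatives 1.31e-05 to 0.203) and the other 5 still passed, while over all genes 2164 of 10118 passed. H2-Eb1 and Cd74 passed in all 28 alternatives, with adjusted p of at most 0.0317 and 0.0437 (edgeR or DESeq2, Benjamini-Hochberg). H2-DMa passed in the 26 that could test it, at no more than 0.027 by the same tests and adjustment. Without RNY1-/- ProteinFx replicates 1 and 2 it was below the test's limit, so that count leaves out fits where H2-DMa was low.

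**Figure D3:**
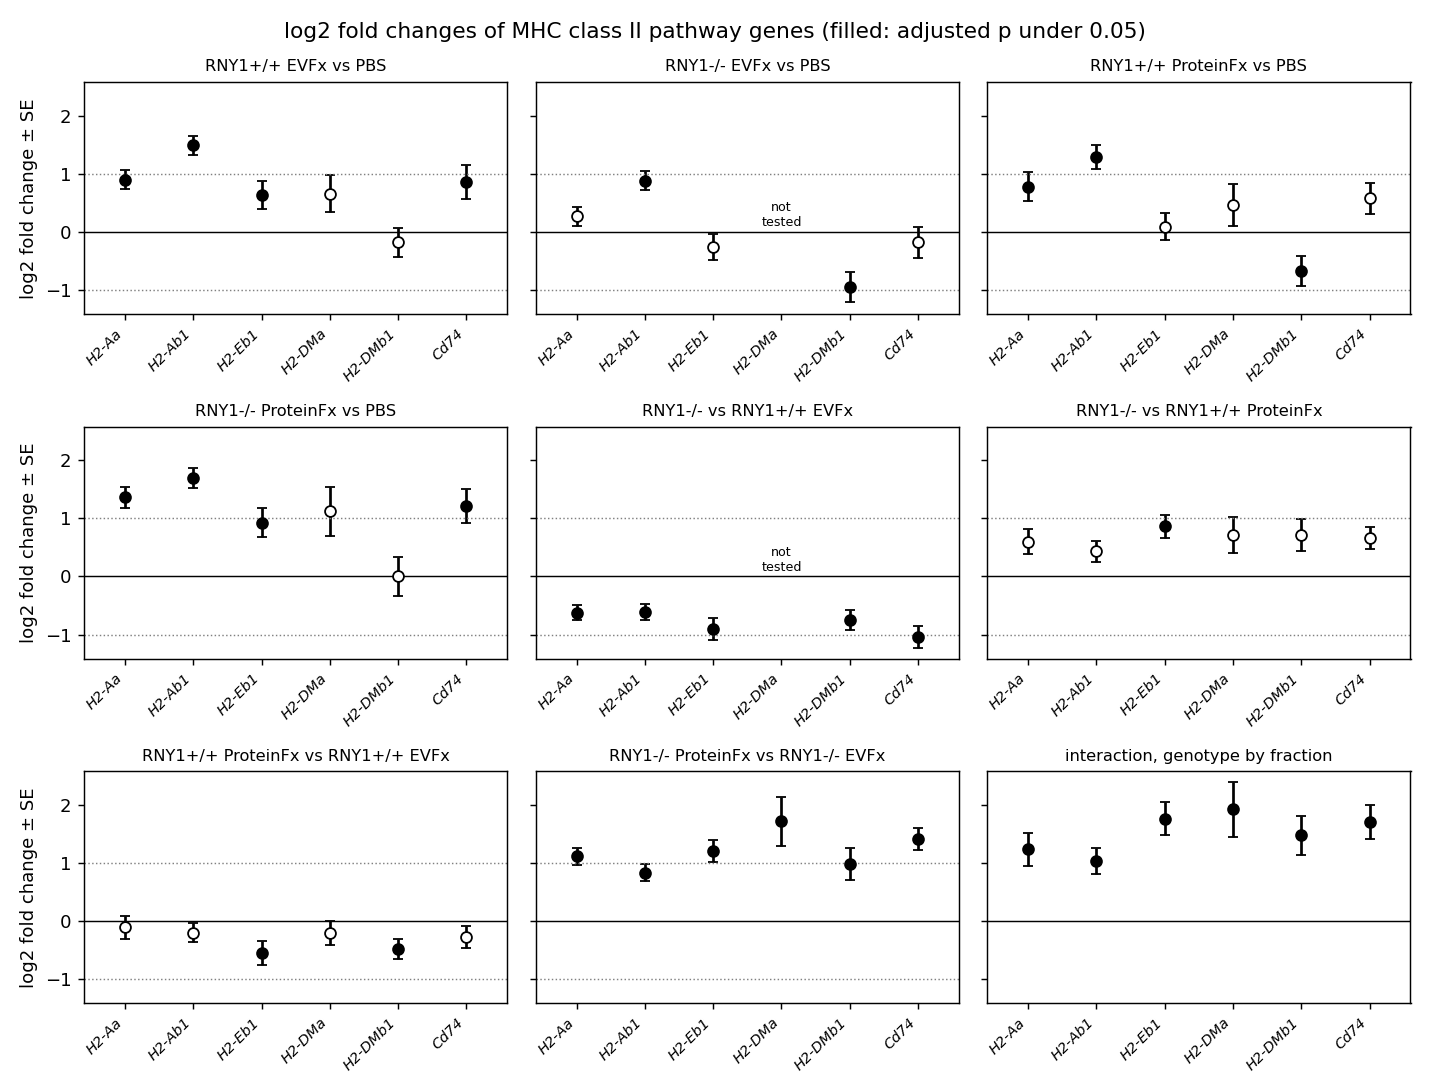
Log2 fold change ± standard error (vertical axis) of 6 MHC class II members in 8 comparisons and in the interaction, from edgeR. Filled points have an adjusted p under 0.05 (Benjamini-Hochberg), dotted lines mark -1 and 1, and all 6 members are filled in the comparison of RNY1-/- ProteinFx with RNY1-/- EVFx and in the interaction.

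Ciita and the untested values of H2-DMa were compared by exact 2-sided permutation of the library CPM, for which 4 libraries against 4 give a smallest p of 0.0286. For Ciita this smallest exact p was reached by RNY1-/- ProteinFx against PBS, and it was 0.143 after Benjamini-Hochberg adjustment over 10 such tests. At that smallest p, a single comparison cannot pass this adjustment, so the permutation tests decide nothing about Ciita. The exact p of Ciita was 0.0571 for RNY1+/+ EVFx and for RNY1+/+ ProteinFx against PBS, 0.2 for RNY1-/- EVFx against PBS, 0.143 for RNY1-/- against RNY1+/+ EVFx, 0.171 for RNY1-/- against RNY1+/+ ProteinFx, 0.514 for RNY1+/+ ProteinFx against RNY1+/+ EVFx and 0.0857 for RNY1-/- ProteinFx against RNY1-/- EVFx. H2-DMa gave an exact permutation p of 0.257 for RNY1-/- EVFx against PBS and 0.0286 (adjusted 0.143) against RNY1+/+ EVFx. In edgeR without the low-count filter and with Benjamini-Hochberg adjustment, Ciita was higher than in PBS with RNY1+/+ EVFx (log2 fold change 2.11, standard error 0.57, adjusted p 0.00273), RNY1+/+ ProteinFx (1.78, 0.65, 0.0262) and RNY1-/- ProteinFx (3.36, 0.53, 2.72e-08) and did not pass with RNY1-/- EVFx (1.30, 0.68, 0.169). In the same edgeR fits without the filter (Benjamini-Hochberg), Ciita was also higher with RNY1-/- ProteinFx than with RNY1+/+ ProteinFx (1.59, 0.39, 0.00302) and RNY1-/- EVFx (2.04, 0.41, 1.26e-05), and its interaction was 2.38 (0.59, 0.0014). The comparisons of RNY1-/- with RNY1+/+ EVFx (-0.78, 0.45, 0.275) and of RNY1+/+ ProteinFx with RNY1+/+ EVFx (-0.27, 0.42, 0.665) did not pass for Ciita (edgeR, Benjamini-Hochberg). Ciita had 36 and 23 counts in RNY1-/- ProteinFx replicates 1 and 2 and 3 or 4 counts in the other libraries of that group. Without that filter H2-DMa was lower with RNY1-/- EVFx than with RNY1+/+ EVFx at -1.24 (0.28, 0.000135; edgeR, Benjamini-Hochberg). With PBS counts of 0 to 5, the fold changes of Ciita depend on the prior count of the fit and bound nothing.

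By the same RMS measure, the 7547 other genes with a mean of at least 10 CPM were compared with Cd74 and Ciita over the 20 libraries. The patterns most like that of Cd74 were those of Lgals3bp (ENSMUSG00000033880), Il4ra (ENSMUSG00000030748), Wars1 (ENSMUSG00000021266) and Stat3 (ENSMUSG00000004040), each at an RMS difference of 0.42, and Tmem219 (ENSMUSG00000060538) at 0.43, where the median gene was at 0.74. Most like Ciita were Oas2 (ENSMUSG00000032690) at 0.63, Irf1 (ENSMUSG00000018899) and Ly6e (ENSMUSG00000022587) at 0.65, Tent5c (ENSMUSG00000044468) at 0.66 and Psmb9 (ENSMUSG00000096727) at 0.68, where the median was 1.02. Cd74 itself departed from its own mean by 0.64 and Ciita by 0.97. With counts as low as those of Ciita, part of that departure is counting noise.

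Upstream of the class II promoters, the interferon gamma route to Ciita was followed in a list of 9 genes, among them the receptor chains, their kinases and transcription factors. Jak2 (ENSMUSG00000024789), the receptor's kinase, rose from 20.4 CPM in PBS to 95.5 with RNY1+/+ EVFx, 89.7 with RNY1-/- EVFx, 114 with RNY1+/+ ProteinFx and 83.3 with RNY1-/- ProteinFx. Its interaction was -0.53 (edgeR, Benjamini-Hochberg adjusted p 0.0104), and with the GC and length trends removed it was -0.23 and did not pass. Irf1, a factor that acts on the Ciita promoter, was at 35.5 ± 7.25, 98.7 ± 12.2, 65.1 ± 15.4, 88.2 ± 12.4 and 112 ± 32.0 CPM in the order PBS, RNY1+/+ EVFx, RNY1-/- EVFx, RNY1+/+ ProteinFx and RNY1-/- ProteinFx. Its interaction was 0.79 (edgeR, Benjamini-Hochberg adjusted p 0.0189), and with the GC and length trends removed it was 0.50 and did not pass. Irf8 (ENSMUSG00000041515), a factor of macrophage and dendritic cell development, fell against PBS with every fraction, by 0.83 on the log2 scale with RNY1-/- ProteinFx and by up to 1.38 with RNY1-/- EVFx. Irf2 (ENSMUSG00000031627), another factor of this family, rose against PBS with RNY1+/+ ProteinFx (0.82) and RNY1-/- ProteinFx (0.87) and did not pass with the EVFx (-0.23 and 0.17), although with the GC and length trends removed it passed as lower with RNY1+/+ EVFx (-0.31).

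Over the interferon gamma list, 4 of 8 tested genes passed as higher and 2 as lower with RNY1+/+ EVFx against PBS, 4 and 1 of 8 with RNY1-/- EVFx, 6 and 1 of 9 with RNY1+/+ ProteinFx, and 4 and 1 of 8 with RNY1-/- ProteinFx. Between genotypes 3 passed as higher and 5 as lower of 9 with EVFx, and 0 and 2 of 9 with ProteinFx. Between ProteinFx and EVFx the list had 5 higher and 1 lower of 9 in RNY1+/+ fluid and 5 and 0 of 9 in RNY1-/- fluid, and in the interaction 2 were positive and 2 negative. The list's median log2 fold changes against PBS were 0.30, 0.25, 0.63 and 0.37. Its most abundant gene by the mean over the 20 libraries, the receptor chain gene Ifngr1, ran from 145 to 307 CPM. Irf8 was higher than Ifngr1 in PBS, and Jak1 with both EVFx. The factors that sit on the X and Y boxes of class II promoters (Rfx5, Rfxap, Rfxank, Nfya, Nfyb, Nfyc and Creb1) had no DEG in any comparison. Against PBS, 3 and 0 of 7, 2 and 1 of 6, 1 and 0 of 6, and 1 and 0 of 7 of them passed as higher and lower in the same order of groups. Creb1 (ENSMUSG00000025958), the most abundant of these by its mean over the 20 libraries, ran from 39.5 to 74.3 CPM. With RNY1+/+ EVFx, Nfya was higher (61.8 CPM against 47.1 for Creb1). Their medians against PBS were -0.03, 0.17, 0.21 and 0.08.

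The enzymes that prepare class II peptides and remove the invariant chain moved in different directions. Of 8 such genes, 2 passed as higher and 5 as lower against PBS with either EVFx, 4 and 3 with RNY1+/+ ProteinFx, and 4 and 1 with RNY1-/- ProteinFx. Ctsl (ENSMUSG00000021477), a protease of the invariant chain, was at 2686 CPM in PBS, 1115 with RNY1+/+ EVFx, 1419.8 with RNY1-/- EVFx, 5546 with RNY1+/+ ProteinFx and 5389 with RNY1-/- ProteinFx, so it fell with both EVFx (log2 fold changes -1.09 and -0.68) and rose with both ProteinFx (1.08 for RNY1-/-). Sppl2a (ENSMUSG00000027366), which cuts the membrane stub of the invariant chain, rose by 1.75, 2.16, 2.03 and 1.73. Ctsd (ENSMUSG00000007891) fell by 1.26, 1.99, 2.11 and 1.73 on the log2 scale. Ifi30 (ENSMUSG00000031838), a reductase that unfolds antigens, had means of 128, 67.4, 49.8, 80.5 and 141 CPM in the order PBS, RNY1+/+ EVFx, RNY1-/- EVFx, RNY1+/+ ProteinFx and RNY1-/- ProteinFx. Like the class II members it had a positive interaction, of 1.09 (edgeR, Benjamini-Hochberg adjusted p 0.00393), and passed as lower with RNY1-/- EVFx (-0.37) and higher with RNY1-/- ProteinFx (0.72) than with the RNY1+/+ fraction. The call between the EVFx ended with the GC and length trends removed (-0.10). Ctsb (ENSMUSG00000021939), the most abundant of these enzymes by its mean over the 20 libraries, ran from 4750.3 to 10707 CPM. Ctss was higher than Ctsb with RNY1-/- EVFx and with both ProteinFx.

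Of 3 genes that act on the turnover of class II molecules, Marchf1 (ENSMUSG00000036469), the ubiquitin ligase that sends them to degradation, rose against PBS in all 4 groups, by 1.42, 1.71, 1.93 and 1.54 on the log2 scale. Cd83 (ENSMUSG00000015396), which opposes Marchf1, fell by 1.47, 1.33, 1.08 and 0.88. On that list 1 gene passed as higher and 2 as lower with RNY1+/+ EVFx, 1 and 1 with RNY1-/- EVFx, 2 and 1 with RNY1+/+ ProteinFx, and 1 and 1 with RNY1-/- ProteinFx. Of the repressor list (Prdm1, Il10 and Tgfb1) 2 genes could be tested, with 1 higher and 0 lower, 0 and 1, 0 and 2, and 0 and 2 in the same order. Prdm1 (ENSMUSG00000038151), a repressor of Ciita, was lower with ProteinFx than with EVFx in RNY1+/+ fluid (-1.17) and in RNY1-/- fluid (-0.82).

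The MHC class I pathway, which presents peptides from inside the cell, is the most alike in function and was followed in 9 genes. Against PBS 9 of 9 rose with RNY1+/+ EVFx and 8 of 9 with each of the other fractions, and 7, 5, 7 and 5 of them were DEGs. Their median log2 fold changes were 1.62, 1.09, 1.33 and 1.27, where the class II members had 0.76, -0.18, 0.52 and 1.17. In the interaction 1 class I gene passed as positive and 1 as negative, with a median of 0.07, where all 6 class II members passed as positive. Nlrc5 (ENSMUSG00000074151), the class I counterpart of Ciita, rose by 1.96, 1.86, 2.29 and 1.94 on the log2 scale and its interaction of -0.24 did not pass (edgeR, Benjamini-Hochberg adjusted p 0.29). Tap1 (ENSMUSG00000037321), a peptide transporter, rose by 1.81 on the log2 scale with RNY1-/- EVFx and by up to 2.13 with RNY1+/+ EVFx, and Tapbp (ENSMUSG00000024308), which holds class I at the transporter, by 1.70, 0.89, 1.07 and 0.99. Psmb8 (ENSMUSG00000024338), a subunit of the immunoproteasome, rose by 1.76, 1.09, 1.09 and 0.93. B2m (ENSMUSG00000060802), the shared light chain, ran from 5280.1 to 13599.8 CPM.

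Between genotypes given as ProteinFx, with the GC and length trends kept, the only call of edgeR in the lists of X and Y box factors, peptide enzymes, turnover genes, repressors and class I genes was 1 peptide enzyme, Ifi30, as higher with RNY1-/-. With those trends removed, the class I gene Tap1 passed as lower (-0.28, edgeR, Benjamini-Hochberg adjusted p 0.049). With EVFx, 1 X and Y box factor passed as higher and 0 as lower with RNY1-/- fluid, 3 and 3 peptide enzymes, 2 and 0 turnover genes, 0 and 1 repressor, and 2 and 3 class I genes. In the interaction 1 X and Y box factor passed as positive and 1 as negative, 2 and 2 peptide enzymes, 0 and 2 turnover genes, and 1 and 0 repressors.

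The remaining class II genes of the genome, H2-Oa, H2-Ob, H2-Ea, H2-Eb2 and H2-DMb2, were below the test's limit in every comparison. H2-Ob, H2-Eb2 and H2-Ea had at most 3 counts in any library. H2-Oa (ENSMUSG00000024334), with 0 to 0.646 CPM, and H2-DMb2 had near-equal means over the 20 libraries (0.227 and 0.223 CPM). In PBS the mean was 0.601 CPM for H2-DMb2 and 0.0572 for H2-Oa. Their sum had group means of 0.716, 0.565, 0.674, 0.533 and 0.872 CPM in the order PBS, RNY1+/+ EVFx, RNY1-/- EVFx, RNY1+/+ ProteinFx and RNY1-/- ProteinFx, an order kept for all group means that follow. The summed list of the X and Y box factors was at 192, 178, 179.7, 180.5 and 193 CPM, the interferon gamma list at 1006, 952, 884, 1099 and 1148, and the peptide enzymes at 23494, 14065, 14375, 23093 and 26379. The turnover genes summed to 119, 129.8, 151, 190.5 and 172, the repressors to 43.2, 45.6, 33.7, 23.3 and 24.9, and the class I genes to 11316, 21726, 23160.3, 23477 and 24523.

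Class II genes are high in dendritic cells and B cells, so markers of those cells were measured in the same libraries. Of 7 dendritic cell genes, Flt3, Zbtb46, Xcr1, Clec9a and Cd209a had at most 3 counts in any library, and Itgax (ENSMUSG00000030789), the most abundant and the only 1 tested, ran from 2.98 to 19.5 CPM. Their sum was 12.9, 12.3, 12 and 16.9 CPM in PBS, 5.95, 5.88, 11.2 and 11.5 with RNY1+/+ EVFx, 4.6, 3.43, 6.4 and 6.39 with RNY1-/- EVFx, 11.5, 6.59, 21.1 and 13.2 with RNY1+/+ ProteinFx, and 21.2, 16.2, 11.2 and 14.9 with RNY1-/- ProteinFx. Itgax was higher with RNY1-/- ProteinFx than with RNY1-/- EVFx (log2 fold change 1.64), as the class II members were. It was also higher with RNY1+/+ ProteinFx than with RNY1+/+ EVFx (0.76), where H2-Eb1 and H2-DMb1 were lower. Against PBS it was lower with RNY1-/- EVFx (-1.29) and did not pass with RNY1+/+ EVFx (-0.60), with which 4 class II members rose. With RNY1-/- against RNY1+/+ EVFx, where the tested class II members were lower, Itgax had -0.69 and did not pass. Its mean there was 4.35 CPM against 7.24. The interaction of Itgax, 0.89, did not pass (edgeR, Benjamini-Hochberg adjusted p 0.117), and its part in the class II differences was not tested. Of 4 B cell genes, none could be tested, Cd79a had at most 3 counts in any library, and the most abundant, Cd79b, ran from 0.347 to 2.27 CPM. The B cell sum was 1.43, 2.39, 1.6 and 2.4 CPM in PBS, 1.55, 1.75, 2.07 and 1.33 with RNY1+/+ EVFx, 1.18, 2.68, 1.97 and 1.35 with RNY1-/- EVFx, 1.34, 1.77, 2.26 and 1.04 with RNY1+/+ ProteinFx, and 2.46, 3.92, 1.2 and 2.07 with RNY1-/- ProteinFx.

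Macrophage markers were abundant in all libraries that gave the class II values, with Lyz2 (ENSMUSG00000069516) from 4131 to 9469 CPM and a sum of 7 genes at 11505, 9216, 9007, 9795 and 10027 CPM. Of these 7, 1 passed as higher and 4 as lower against PBS with RNY1+/+ EVFx, 2 and 4 with RNY1-/- EVFx, 4 and 3 with RNY1+/+ ProteinFx, and 4 and 1 with RNY1-/- ProteinFx. Adgre1 (ENSMUSG00000004730) rose by 1.86, 2.14, 1.96 and 1.57 on the log2 scale, Itgam (ENSMUSG00000030786) had -0.71, -0.53, 1.49 and 1.11, and Fcgr1 (ENSMUSG00000015947) had 0.48, 0.58, 2.29 and 1.90, of which 0.48 did not pass. Mertk (ENSMUSG00000014361) had -0.75, -0.33, 0.51 and 0.34, of which -0.33 did not pass. Between genotypes, 2 of the 7 macrophage markers passed as higher and 2 as lower with RNY1-/- EVFx, and 0 and 1 with RNY1-/- ProteinFx. Between ProteinFx and EVFx, 3 were higher and 1 lower in fluid of either genotype. In the interaction 2 were positive and 3 negative, with a median of -0.48. Of the T cell list, Cd3d, Cd3e, Cd3g and Ifng, the gene of interferon gamma itself, had at most 3 counts in any library, and Cd4 ran from 0 to 9.02 CPM. The T cell sum was 9.22, 7.57, 2.52 and 3.56 CPM in PBS, 3.88, 4.25, 3.8 and 2.05 with RNY1+/+ EVFx, 1.97, 1.94, 0.739 and 1.01 with RNY1-/- EVFx, 1.91, 0.76, 1.01 and 0.694 with RNY1+/+ ProteinFx, and 3.21, 4.06, 1.2 and 0.259 with RNY1-/- ProteinFx. Cd4 was a DEG lower with RNY1-/- EVFx than in PBS (-1.6).

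Markers of airway cells were measured in the same way, although per the methods the lavage fluid was spun to take out cells and debris and separated on a size exclusion column before use. Of 5 neutrophil genes, Ly6g, Mpo and Elane had at most 3 counts in any library, the most abundant was S100a8 (91 to 209 CPM), and group means of the sum were 289, 162, 226, 269 and 308 CPM, with 2 lower of 2 tested against PBS with RNY1+/+ EVFx and 1 lower with RNY1-/- EVFx. Both tested genes passed as higher with RNY1-/- than with RNY1+/+ EVFx (median 0.55), where the tested class II members were lower, and with RNY1+/+ ProteinFx than with RNY1+/+ EVFx (0.73), and 1 of them with RNY1-/- ProteinFx than with RNY1-/- EVFx. Of 4 eosinophil genes, Epx was at 0 and Prg2 had at most 3 counts, Ccr3 ran from 0.751 to 19.1 CPM, and the sums were 9.06, 1.20, 1.73, 16.9 and 14.4 CPM. Ccr3 was the only eosinophil gene tested and had -2.97, -2.30, 1.09 and 0.66 against PBS, of which 0.66 did not pass. It was a DEG higher with RNY1-/- ProteinFx than with RNY1-/- EVFx (2.97), as 4 class II members were, and with RNY1+/+ ProteinFx than with RNY1+/+ EVFx (4.06), where no class II member was higher, and its interaction of -1.09 did not pass (edgeR, Benjamini-Hochberg adjusted p 0.0513). Of 3 fibroblast genes, Col1a2 was the most abundant (3.69 to 25.1 CPM), the sums were 31.1, 25.3, 15.5, 21.4 and 19 CPM, and 1 passed as lower against PBS in each of the 4 groups and 1 of 2 with RNY1-/- against RNY1+/+ EVFx. The part of these cells' RNA in the class II values was not tested.

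H2-DMa, H2-DMb1, H2-Ab1, H2-Aa and H2-Eb1 lie together on chromosome 17 among 11 neighbouring genes, in the order H2-DMa, H2-DMb2, H2-DMb1, Psmb9, Tap1, Psmb8, Tap2, H2-Ob, H2-Ab1, H2-Aa and H2-Eb1 in assembly GRCm38.p6, and 2 members lie on other chromosomes. Promoter sequences are shown for 3 of the members that rose with RNY1-/- ProteinFx over RNY1-/- EVFx, because letters like those of the X and Y boxes were found in them, while H2-DMa, which rose most, held no such pair. RefSeq promoters (build GRCm38.p6) were found for 4 members in 5 entries, H2-Aa, H2-Eb1, H2-DMb1 and H2-DMa, with no entry for H2-Ab1 and Ciita, and Cd74 was not used here. In the 250 bases before each start, both strands were searched for the Y box core ATTGG, held by 33.8% of 32851 promoters, and for AGNNAC as the X box core, held by 85.6%. The pair with ATTGG starting 30 to 38 bases after the start of AGNNAC was held by 1.38% of promoters, among them H2-DMb1 and H2-Eb1. A looser pair, chosen after the sequences were seen, has GNAAC followed by ATTGG 29 to 37 bases on, overlaps the stricter pair and was held by 1.28% of promoters, among them also H2-Aa. Capitals mark the motifs, and the sites lie at chr17:34153088-34153142 (plus strand) for H2-DMb1, chr17:34305767-34305820 (plus strand) for H2-Eb1 and chr17:34287859-34287912 (minus strand) for H2-Aa.
H2-DMb1: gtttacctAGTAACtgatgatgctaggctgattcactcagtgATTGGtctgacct
H2-Eb1: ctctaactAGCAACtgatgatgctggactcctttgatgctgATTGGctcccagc
H2-Aa: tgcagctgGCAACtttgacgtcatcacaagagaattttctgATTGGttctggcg
From the start of GNAAC to that of ATTGG there were 33 bases in H2-DMb1, 32 in H2-Eb1 and 33 in H2-Aa, and from AGNNAC 34 in H2-DMb1 and 33 in H2-Eb1, and the Y box began 61, 59 and 48 bases before the start of the gene. H2-Aa held only the looser pair, and the 2 entries of H2-DMa held neither. A match of letters is a description and shows no binding.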

How the data were processed

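RNA of 20 libraries was measured with 3′-end sequencing, and the deposited table holds, for each gene and library, expected counts and CPM. Per the submitters' processing notes, the authors trimmed reads with fastp 0.24.0, aligned them to GRCm39 with STAR 2.7.11, removed duplicates by molecular identifier and made the expected counts with featureCounts (Subread 2.1.1), by strand, over exons and 3′ UTRs, with multi-mapping reads as fractions. The deposited CPM are those counts divided by each library's total, and recomputed CPM differed from them by at most 4.66e-06. All 86 genes, the 7 members and those of the 14 lists, were found by symbol.

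The expected counts as deposited were rounded to whole numbers for the fits, in R 4.3.3 with edgeR 4.0.16 and limma 3.58.1 (DESeq2 1.42.0 as an alternative). Descriptions used Python 3.11.15, numpy 2.4.6, pandas 2.3.3, scipy 1.17.1 and matplotlib 3.10.9. GC and length trends were removed as offsets from natural splines with 4 degrees of freedom, and RMS values used a prior count of 2. Pairs of replicate libraries differed beyond counting error, with chi-square per degree of freedom of 2.52 to 40.7.

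Named genes were the members, up to 4 genes per list (mean level 10 CPM or more, DEG in at least 1 comparison, largest change), the 5 genes most like Cd74 and Ciita, and near-zero markers. The most abundant gene of each list, by its mean over the 20 libraries, and Ccr3 and Cd4 were named after their values were seen. The lists were X and Y box factors, interferon gamma route, peptide enzymes, turnover, repressors, MHC class I, other MHC class II, and markers of macrophages, dendritic cells, B cells, T cells, neutrophils, eosinophils and fibroblasts. A few genes of these lists are not reported here and enter no count or sum. The members and lists were chosen with earlier results of these data known.

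Replicate numbers come from the labels. Same-numbered libraries deviated together in all 4 pairs (correlation over 0.1, across genes) for RNY1-/- EVFx against PBS (0.14, 0.38, 0.24 and 0.13) and for RNY1-/- ProteinFx against RNY1-/- EVFx (0.22, 0.40, 0.29 and 0.27), and in no other comparison. The fits were checked on data made with known answers. Alternatives were DESeq2, library totals, other filters, 1 fit of all 20 libraries, the replicate block, GC and length offsets, and 80 fits that each left out 1 library.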

Additional observations from a re-analysis of the deposited data

Results flagged for a closer look

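A library was marked when its gap to the nearest other library of its group of 4 exceeded Dixon's limit for 4 libraries, as a share of the group's range, and chance marks about 1 in 20 groups. Of 145 group checks 5 were marked. H2-Eb1 was at 6.59 CPM in RNY1+/+ ProteinFx replicate 2, below the others of its group. Irf1 was at 24.7 CPM in PBS replicate 3, Tap1 at 149.6 CPM in RNY1+/+ EVFx replicate 3 and Adgre1 at 3329 CPM in RNY1+/+ ProteinFx replicate 4. The total count of RNY1+/+ EVFx replicate 3 was 4994483.

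The difference between RNY1-/- and RNY1+/+ differed between ProteinFx and EVFx for 6 of 6 members by the interaction test (edgeR, Benjamini-Hochberg adjusted p under 0.05), which 3450 of all 10443 genes passed. The log2 values were 1.23 for H2-Aa, 1.03 for H2-Ab1, 1.76 for H2-Eb1, 1.92 for H2-DMa, 1.47 for H2-DMb1 and 1.70 for Cd74. In the same libraries the GC measure was lower with RNY1-/- EVFx than with RNY1+/+ EVFx, and its part was not tested beyond the fit with the GC and length trends removed, where H2-Ab1 was at 0.53 and did not pass while the other 5 passed, as did 2164 of 10118 genes. Without RNY1-/- ProteinFx replicates 1 and 2, 2 of 5 members and 350 of 10405 genes passed, and H2-DMa was below the test's limit.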

How the results depend on the processing

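Of 966 alternative values of the members' log2 fold changes, 859 kept their side of the threshold, 64 lost the call, 43 gained it and 0 called values changed sign. The counts of DEGs among the members were 1, 0, 1 and 3 against PBS (RNY1+/+ EVFx, RNY1-/- EVFx, RNY1+/+ ProteinFx, RNY1-/- ProteinFx), 1 and 0 for RNY1-/- against RNY1+/+ (EVFx, ProteinFx), 0 and 4 for ProteinFx against EVFx (RNY1+/+, RNY1-/-), and 6 members passed the interaction. By adjusted p whatever the fold, the counts were 4 for RNY1+/+ EVFx, 2 for RNY1-/- EVFx and 3 for RNY1+/+ ProteinFx against PBS, 5 for RNY1-/- against RNY1+/+ EVFx, 1 for RNY1-/- against RNY1+/+ ProteinFx and 2 for RNY1+/+ ProteinFx against RNY1+/+ EVFx. Without the low-count filter, which also lets Ciita be tested, the counts of DEGs were 2, 2 and 5 for RNY1+/+ EVFx, RNY1+/+ ProteinFx and RNY1-/- ProteinFx against PBS, 2 for RNY1-/- against RNY1+/+ EVFx and 1 for RNY1-/- against RNY1+/+ ProteinFx. With filterByExpr only, and with all 20 libraries in 1 fit, RNY1-/- against RNY1+/+ EVFx had 2 DEGs. With library totals RNY1-/- EVFx against PBS had 1 DEG.

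With the GC and length trends removed, alone or with the replicate block, the count of DEGs was 1 for RNY1-/- EVFx, 2 for RNY1+/+ ProteinFx and 5 for RNY1-/- ProteinFx against PBS, and 0 for RNY1-/- against RNY1+/+ EVFx. Without RNY1-/- ProteinFx replicates 3 and 4, with or without those trends removed, it was 5 for RNY1-/- ProteinFx against PBS, and 3 for RNY1-/- against RNY1+/+ ProteinFx with the trends kept. Without replicates 1 and 2, with or without the trends removed, it was 1 for RNY1-/- ProteinFx against RNY1-/- EVFx and 2 for the interaction. The fits that join these library pairs with trend removal were chosen after seeing the data. In these cases the cause was not tested.

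With the replicate block the counts were 1, 0, 1 and 4 against PBS, 0 for RNY1-/- against RNY1+/+ with either fraction, 0 and 4 for ProteinFx against EVFx, and 6 for the interaction. In the comparisons where same-numbered libraries deviated together, the replicate block changed no call of a member. In the others not all 4 pairs passed 0.1, although RNY1-/- ProteinFx against PBS had correlations of 0.51, 0.62, 0.64 and 0.02, with 3 libraries best with their own number, and with the block 6615 in place of 3878 of all genes passed there. In these comparisons the block ended the calls of H2-DMb1 for RNY1+/+ ProteinFx against PBS and of H2-Eb1 for RNY1-/- against RNY1+/+ ProteinFx, and H2-DMa passed for RNY1-/- ProteinFx against PBS. In no comparison did every library correlate best with its own number.

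Leaving out 1 library at a time gave 1 to 3, 0 to 1, 1 to 1 and 2 to 5 DEGs against PBS, 0 to 2 and 0 to 0 for RNY1-/- against RNY1+/+, 0 to 0 and 2 to 5 for ProteinFx against EVFx, and 6 to 6 for the interaction. The value of 5 for RNY1-/- ProteinFx against RNY1-/- EVFx came without RNY1-/- EVFx replicate 1, and also without RNY1-/- ProteinFx replicate 3 or 4.

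Depth limits Ciita, which had a few counts in most libraries, and its fold changes without the low-count filter depend on the prior count. The permutation tests of 4 libraries against 4 cannot pass the adjustment for a single comparison. The 8 libraries of a comparison and the unknown origin of the libraries limit every test.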
